A study of Mus musculus with 14 samples.

Results

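The genes described here are a set of 10 that mark alveolar type 1 cells in mouse lung: Aqp5, Hopx, Ager, Pdpn, Cav1, Rtkn2, Akap5, Clic5, Igfbp2 and Emp2. Their probes were those whose RefSeq accession in the array files belongs to one of these symbols, a rule that uses no measured value. Of the 10 genes, 9 matched a probe, with 16 probes in all, and Rtkn2 matched none and was not analysed here. The 9 are set among 30579 genes tested. Lungs came from male C57BL/6N mice killed 1 month after intratracheal instillation, and each was hybridised to a single-colour array. The groups were VCF, a carbon fibre before recycling (3 mice), CCF, the fibre after carbonization (3 mice), RCF, the fibre after firing (3 mice), and control, the PBS vehicle (5 mice). Each fibre was given at 200 µg per mouse, and the ages of the mice are not given in the sources used here. The series text calls the hybridisations independent biological samples, so the p-values measure the spread between these samples.

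Alveolar type 1 cells are thin, very wide epithelial cells that form most of the gas exchange surface, and they lie against the capillary endothelium across a shared basement membrane. After injury they are replaced mainly from cuboidal type 2 cells, which pass through a transitional state with high keratin genes. None of the marker genes belongs to type 1 cells alone: Cav1 is also abundant in endothelium and fibroblasts, and Hopx and Pdpn are made by other lung cells. In RNA from a whole lung, fewer cells of a type and less RNA per cell cannot be told apart.

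All 16 probes were well above background on all 14 arrays and none was saturated. The level of a gene on an array is log2 of its processed intensity minus the 75th percentile of that array, so that 0 is the 75th percentile. A level is compared only with the same probe on other arrays. The 75th percentile itself lay at 277, 323 and 375 intensity units on VCF 1, CCF 2 and RCF 1, and between 891 and 2953 on the other 11 arrays, and the first 3, all on slide 1, are called the dim arrays below. Arrays stood on 3 slides, with control arrays on each, VCF and CCF arrays on slides 1 and 2, and RCF arrays on slides 1 and 3. With 3 arrays per fibre group, precision is limited by the number of arrays.

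The sequence upstream of 4 of the genes is shown here. Ager and Akap5 are the pair whose levels moved together most closely from array to array, and Cav1 and Hopx are the pair that passed the threshold under some of the processing alternatives. Each is the 250 bases before an annotated start in RefSeq on build GRCm38.p6, written 5′ to 3′ on the strand of the gene. Capitals mark matches, on either strand, to 4 short motifs: GGAATG (TEAD factors), CTCAAG (NKX2-1), GGGCGG (the GC box) and TATAAA (the TATA box), and no match shown overlaps a match of another motif. The windows are Ager at chr17:34597600-34597849 on the plus strand, Akap5 at chr12:76324641-76324890 on the plus strand, the first of 2 Cav1 windows at chr6:17306085-17306334 on the plus strand, and the first of 2 Hopx windows at chr5:77115124-77115373 on the minus strand.
Ager: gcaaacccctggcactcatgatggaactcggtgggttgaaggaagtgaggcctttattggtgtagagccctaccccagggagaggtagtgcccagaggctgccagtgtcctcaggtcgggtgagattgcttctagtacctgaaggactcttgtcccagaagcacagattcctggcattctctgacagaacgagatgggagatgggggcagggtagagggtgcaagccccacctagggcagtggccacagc
Akap5: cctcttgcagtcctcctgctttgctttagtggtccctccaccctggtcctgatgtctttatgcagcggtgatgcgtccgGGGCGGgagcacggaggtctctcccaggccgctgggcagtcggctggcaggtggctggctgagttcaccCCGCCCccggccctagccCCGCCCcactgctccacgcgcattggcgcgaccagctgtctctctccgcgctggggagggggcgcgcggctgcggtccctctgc
Cav1: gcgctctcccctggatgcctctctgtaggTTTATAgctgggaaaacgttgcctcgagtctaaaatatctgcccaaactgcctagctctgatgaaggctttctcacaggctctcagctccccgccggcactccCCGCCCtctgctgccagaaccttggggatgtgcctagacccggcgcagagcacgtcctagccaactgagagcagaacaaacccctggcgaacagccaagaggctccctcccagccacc
Hopx: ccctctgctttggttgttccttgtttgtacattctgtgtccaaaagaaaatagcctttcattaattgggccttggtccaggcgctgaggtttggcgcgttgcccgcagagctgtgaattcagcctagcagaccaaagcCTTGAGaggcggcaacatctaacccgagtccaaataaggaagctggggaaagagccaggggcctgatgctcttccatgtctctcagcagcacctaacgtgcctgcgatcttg
The Ager window held none of the 4 motifs at 57.6% G and C, and the Akap5 window held GC boxes only at 70.0% G and C. The Cav1 window held a GC box and a TATA box, and the Hopx window a CTCAAG match. Over the 12 windows of the 9 genes, GGGCGG lay in 6, against 32.7% of all 32851 RefSeq windows of this length. CTCAAG lay in 2 of the 12 (13.3% of all windows), TATAAA in 1 (12.4% of all) and GGAATG in 0 (12.6% of all). A match describes the letters of the window and says nothing of binding.

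None of the 9 genes passed limma's threshold, an adjusted p under 0.05 over all genes tested, in any fibre group against vehicle. In VCF lungs 0 of 9 passed, where 0.0850% of all genes did, and 2 of 9 had an unadjusted p under 0.05 (Aqp5 and Igfbp2, both below 0), where 9.96% of all genes did. In CCF lungs 0 of 9 passed against 5.99% of all genes, with 2 higher (Cav1 and Clic5) and 1 lower (Hopx) at an unadjusted p under 0.05, where 23.7% of all genes reached that level. In RCF lungs 0 of 9 passed against 0.154% of all genes, with 1 at an unadjusted p under 0.05 (Cav1, above 0), where 12.9% of all genes reached that level. With the 3 fibres averaged, 0 of 9 passed against 2.58% of all genes, with 1 at an unadjusted p under 0.05 (Cav1) against 19.5% of all genes.

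Arrays of a fibre group lay wholly apart from the 5 controls for few of the 9 genes. In VCF lungs 1 gene lay wholly below the controls (Aqp5; 3.91% of all genes did) and 0 wholly above (3.46% of all). In CCF lungs 1 lay wholly above (Cav1; 9.89% of all) and 0 wholly below (6.46% of all). In RCF lungs 0 lay wholly above (7.62% of all) or below (3.77% of all). The smallest share above 0 that 9 genes can give is 1 of 9.

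The 9 genes had a median difference of −0.12 (VCF), −0.09 (CCF) and −0.08 (RCF), beside medians over all genes of −0.00, −0.00 and 0.06. The median was 0.01 in CCF without CCF 3 and 0.04 in RCF without control 2, so these directions rested on single arrays. Differences ran below 0 for 7 of 9 genes in VCF and for 6 of 9 in both CCF and RCF. The 95% intervals of the single genes bound what could have been missed: over the 9 genes they reached from −1.02 to 0.99 in VCF, from −0.999 to 1.43 in CCF and from −0.90 to 1.18 in RCF. Standard errors lay between 0.12 and 0.29, so small changes in either direction lay within the intervals of most of these genes. The plot of differences shows Cav1 as the gene that stood farthest from the other members, above 0 in all fibre groups.

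**Figure D1:**
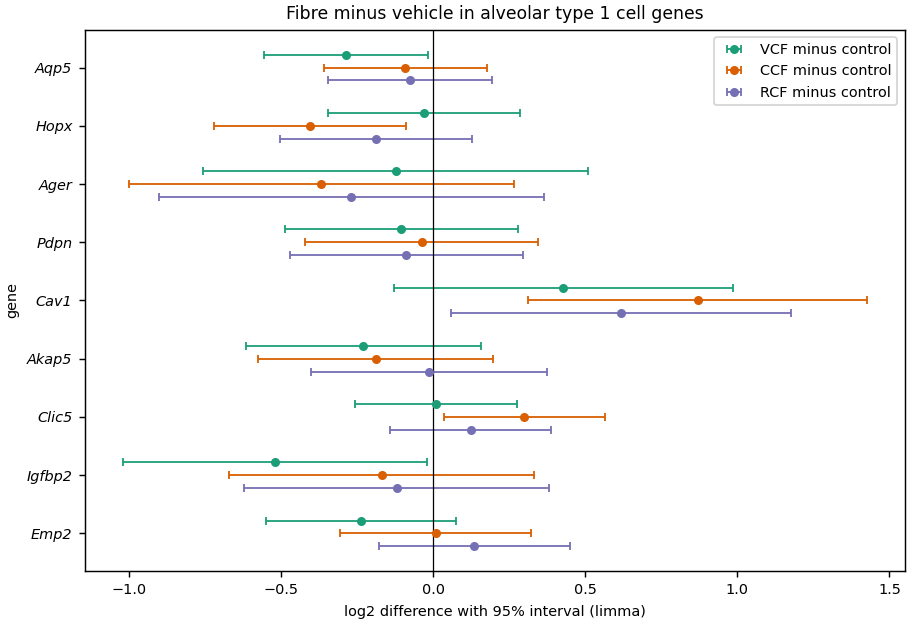
Log2 difference of each alveolar type 1 cell gene between each fibre group and vehicle (x axis), with limma's 95% interval as a bar, 1 line of 3 points per gene and colours for VCF, CCF and RCF. The points lie between −0.52 and 0.87, the Cav1 interval of CCF runs from 0.31 to 1.43 and that of RCF from 0.06 to 1.18, and 7 of 9 intervals include 0 in VCF, 6 of 9 in CCF and 8 of 9 in RCF.

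Cav1 encodes caveolin 1, the protein that shapes caveolae, the flask-like pits of the type 1 cell and capillary plasma membrane. Its level was −0.04, −0.10 and 0.35 on the VCF arrays, 0.39, 0.98 and 0.17 on the CCF arrays and 0.72, −0.05 and 0.11 on the RCF arrays, against −0.38, −0.23, 0.07, −0.35 and −0.89 on the control arrays. Every CCF array lay above every control array, while the VCF and RCF arrays overlapped with control 3, the highest control. The difference in CCF was 0.87 ± 0.26 (SE; 1.83-fold, 95% interval of the fold 1.24 to 2.69, adjusted p = 0.0653), and it was 0.62 ± 0.26 in RCF (adjusted p = 0.325) and 0.43 ± 0.26 in VCF (adjusted p = 0.649). The highest CCF and RCF values came from dim arrays. Without the 3 dim arrays the difference was 0.64 in CCF (adjusted p = 0.188) and 0.39 in RCF (adjusted p = 0.576). It was 0.99 within slide 1 and 0.10 within slide 2 for CCF, and 1.03 within slide 1 and 0.65 within slide 3 for RCF.

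A second probe of the same Cav1 transcript gave the only call among the 16 probes. It read −1.66, −1.57 and −1.08 on the VCF arrays, −1.08, −0.66 and −1.06 on the CCF arrays and −0.83, −1.43 and −1.17 on the RCF arrays, against −1.86, −2.33, −1.34, −1.86 and −2.07 on the control arrays. The CCF arrays again lay above every control array, and control 3 was again the highest control (10.6% of all probes had CCF arrays wholly above the controls). In a fit over all 37984 probes, of which 6.22% passed in CCF, this probe was 0.96 ± 0.23 higher in CCF lungs (1.94-fold, adjusted p = 0.0339). It stood at 0.75 ± 0.23 in RCF (adjusted p = 0.188) and 0.46 ± 0.23 in VCF lungs (adjusted p = 0.559). The CCF call was lost without any one of control 1, 4 and 5 or CCF 1, 2 and 3, with values of 0.82 to 1.10 (adjusted p = 0.0177 to 0.133) when single arrays were left out. Its highest CCF and RCF values again came from dim arrays. Without the 3 dim arrays the call was lost too, at 0.82 in CCF (adjusted p = 0.117). Both Cav1 probes thus stood in the same order, CCF, RCF, VCF and control, and no neighbours in that order differed past the threshold.

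The other caveola genes were mixed. Their list and those below were chosen with earlier results of these data known. Counts set beside all genes therefore describe the lists and do not test them. Of 8 coat and partner genes, 1 passed in CCF lungs and none in VCF or RCF lungs, where 5.99%, 0.0850% and 0.154% of all genes did. Their median was −0.01 in CCF beside −0.00 over all genes. Ehd2, an ATPase that holds caveolae at the cell surface, read 0.77, 0.81 and 0.74 on the CCF arrays and 0.09, 0.29, 0.08, 0.34 and 0.14 on the control arrays, with no overlap. Among all genes, 9.89% had CCF arrays wholly above the controls. Ehd2 rose by 0.59 ± 0.11 in CCF lungs (adjusted p = 0.0153, lost without CCF 2, and 0.07 without the 3 dim arrays). Cav2, the partner of caveolin 1, stood at 0.55 ± 0.22 in CCF (adjusted p = 0.147), 0.44 in RCF and 0.38 in VCF lungs. The coat proteins Cavin1, Cavin2 and Cavin3 stood at −0.15, 0.01 and −0.06 in CCF.

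Endothelial genes were read beside Cav1, since capillaries also make it. Of 10 endothelial markers, 2 rose in CCF lungs, where 5.99% of all genes passed, and none passed in RCF lungs, where 0.154% did. In VCF lungs 1 fell, where 0.0850% of all genes passed. Plvap, the protein of endothelial fenestrae, fell by 1.14 ± 0.17 in VCF lungs (adjusted p = 0.0462), a call lost without any one of 13 arrays. Tek, the angiopoietin receptor, was higher by 0.76 ± 0.19 (adjusted p = 0.0413) and Ednrb, an endothelin receptor, by 0.54 ± 0.14 (adjusted p = 0.049) in CCF, though another Ednrb probe stood at −0.29 ± 0.51 and neither call held when any one CCF array was left out. The median of the list on single arrays, as a difference from the control mean, ran from −0.36 to −0.17 in VCF, from −0.11 to 0.08 in CCF, from −0.15 to 0.10 in RCF and from −0.21 to 0.27 in control lungs. Of 5 lymphatic endothelial markers 1 passed, in CCF lungs, where 5.99% of all genes did. Lyve1 rose by 1.08 ± 0.17 in CCF lungs (2.11-fold, adjusted p = 0.00993), a call kept without each single array (adjusted p = 0.0569 without the 3 dim arrays). The part of endothelial cells in the Cav1 values was not tested.

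Hopx, a cofactor of transcription without DNA binding that is switched on as type 1 cells mature, pointed the other way in CCF lungs. Its level was 6.35, 6.04 and 6.11 on the VCF arrays, 5.73, 5.93 and 5.73 on the CCF arrays and 6.08, 5.93 and 6.02 on the RCF arrays, against 6.38, 5.80, 6.24, 6.25 and 6.33 on the control arrays. The CCF arrays lay below 4 of the 5 controls and overlapped with control 2, which stood far below the other controls. Against vehicle the difference in CCF was −0.40 ± 0.14 (adjusted p = 0.115), in RCF −0.19 ± 0.14 (adjusted p = 0.65) and in VCF −0.03 ± 0.14 (adjusted p = 0.982). Without control 2 it was −0.50 in CCF (adjusted p = 0.0255), and with quantile scaling of the arrays −0.14 (adjusted p = 0.675). It was −0.26 within slide 1 and −0.51 within slide 2 for CCF. All CCF arrays lay below all VCF arrays (difference −0.37 ± 0.16, adjusted p = 0.336).

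**Figure D2:**
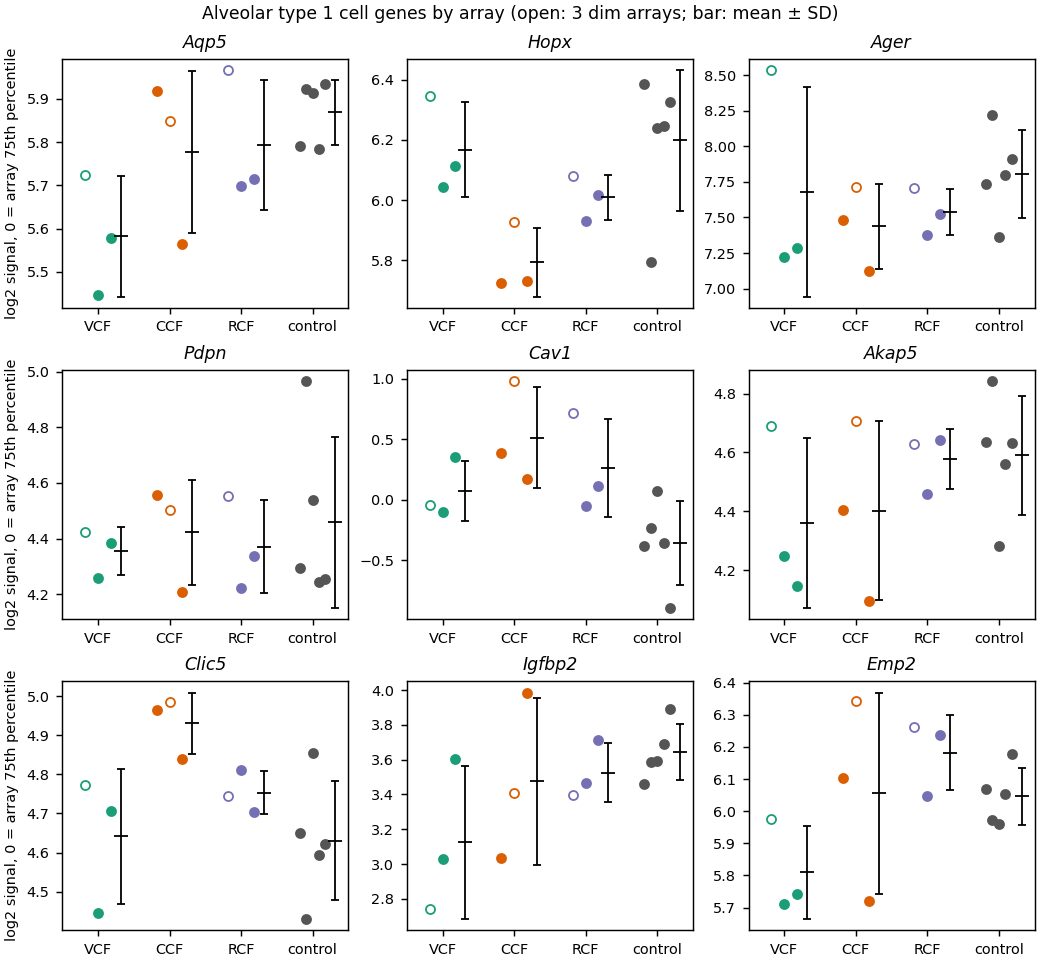
Level of each of the 9 genes on each array (y axis, log2 signal with 0 at the 75th percentile of the array; y axes differ between panels), by group from VCF to control; open circles are the 3 dim arrays and bars are mean ± SD (n = 3 per fibre, n = 5 controls). The CCF points of Cav1 all lie above the controls, the VCF points of Aqp5 all lie below them, control 2 lies low for Hopx at 5.80, and VCF 1 lies high for Ager at 8.53.

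Ager encodes RAGE, the multiligand receptor that type 1 cells carry on their basal surface in unusual amounts. The probe with the highest mean read 8.53, 7.22 and 7.29 on the VCF arrays, 7.48, 7.71 and 7.12 on the CCF arrays and 7.70, 7.38 and 7.53 on the RCF arrays, against 7.74, 8.22, 7.37, 7.80 and 7.91 on the control arrays. The groups overlapped, and the dim array VCF 1 was the highest of all. Differences were −0.12 ± 0.29 in VCF (adjusted p = 0.953), −0.37 ± 0.29 in CCF (adjusted p = 0.494) and −0.27 ± 0.29 in RCF lungs (adjusted p = 0.777). The sign in VCF rested on single arrays: the difference was −0.55 without VCF 1 (adjusted p = 0.403), 0.11 without VCF 2 and 0.07 without VCF 3.

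Ager had 5 probes, and in CCF and RCF lungs all of them stood below 0. With quantile scaling of the arrays the probe with the highest mean stood at 0.02 in CCF and 0.01 in RCF lungs. A probe assigned to a noncoding Ager transcript read −0.36, −0.34 and −0.50 on the CCF arrays and −0.65, −0.63 and −0.54 on the RCF arrays, against 0.03, 0.07, −0.15, 0.47 and −0.32 on the control arrays. Both fibre groups lay wholly below the controls, while the VCF arrays, at 0.09, 0.04 and −0.11, lay among them. The difference was −0.42 ± 0.16 in CCF (adjusted p = 0.134), −0.62 ± 0.16 in RCF (adjusted p = 0.128) and −0.01 ± 0.16 in VCF lungs. A probe of another coding transcript stood at −0.39 ± 0.16 in CCF and −0.45 ± 0.16 in RCF, again without overlap with the controls (adjusted p = 0.168 and 0.254). A further coding probe stood at −0.15 ± 0.20 in CCF, just below all controls (highest CCF array 5.862, lowest control 5.864). In RCF it stood at −0.50 ± 0.20 and overlapped with the controls (adjusted p = 0.294). Among all probes, 6.33% in CCF and 3.58% in RCF had all fibre arrays below all controls. None of the 5 passed the threshold. Probes of 1 gene share their RNA and are not independent.

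The genes of RAGE ligands included several that fell in CCF lungs. Of 6 ligand genes, 4 were lower past the threshold in CCF, where 5.99% of all genes passed. In VCF and RCF lungs none passed, where 0.0850% and 0.154% of all genes did. The list was chosen with earlier results of these data known, so these counts are a description and no test of it. Hmgb1, a chromatin protein that signals through RAGE once released, read 3.02, 3.16 and 3.44 on the CCF arrays and 4.96, 4.22, 4.96, 4.96 and 5.08 on the control arrays. It fell by 1.63 ± 0.31 in CCF lungs (adjusted p = 0.0163, lost without CCF 1 or CCF 2, and 0.0405 without the 3 dim arrays), and its other probes stood at −1.36 and −1.74. S100a4, a calcium-binding protein of motile and immune cells, fell by 0.80 ± 0.20 (adjusted p = 0.0396, lost without any one of 7 arrays). S100a8 and S100a9, which are also 2 of the 6 measured neutrophil markers, fell by 1.85 ± 0.36 and 1.68 ± 0.29 (adjusted p = 0.0174 and 0.0134, both lost without CCF 2). Of these 4 genes Hmgb1 alone passed without the 3 dim arrays. The neutrophil list had a median of −1.69 in CCF, 1.10 in VCF and 0.07 in RCF lungs. S100b and S100a6 stood at −0.26 and −0.24 in CCF.

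Akap5, a scaffold that ties protein kinase A to the membrane, had a level of 4.69, 4.25 and 4.15 on the VCF arrays, 4.40, 4.71 and 4.10 on the CCF arrays and 4.63, 4.46 and 4.64 on the RCF arrays, against 4.63, 4.84, 4.28, 4.56 and 4.63 on the control arrays. All groups overlapped. Differences were −0.23 ± 0.18 in VCF, −0.19 ± 0.18 in CCF and −0.01 ± 0.18 in RCF lungs (adjusted p = 0.764, 0.579 and 0.989). A second Akap5 probe stood on the other side of 0, at 0.21 ± 0.16 in VCF, 0.11 ± 0.16 in CCF and 0.10 ± 0.16 in RCF, so the probes of this gene give no shared direction.

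**Figure D3:**
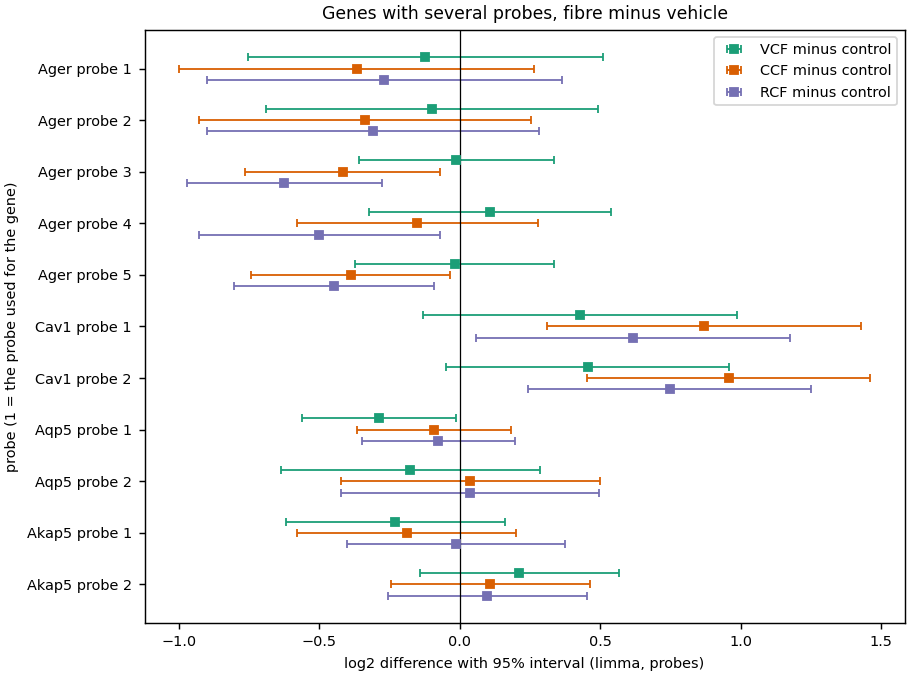
Log2 difference from vehicle (x axis) with limma's 95% interval for each probe of the 4 genes that have several, by fibre group, where probe 1 is the probe used for the gene. The Cav1 probes agree in sign in all groups, the 5 Ager probes lie below 0 in CCF and RCF, and the Akap5 probes lie on opposite sides of 0.

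Aqp5 encodes the water channel of the apical type 1 cell membrane. Its level was 5.72, 5.45 and 5.58 on the VCF arrays, 5.92, 5.85 and 5.57 on the CCF arrays and 5.97, 5.70 and 5.72 on the RCF arrays, against 5.79, 5.92, 5.91, 5.78 and 5.93 on the control arrays. Every VCF array lay below every control array, while CCF and RCF overlapped with the controls. The difference was −0.29 ± 0.12 in VCF (1.22-fold lower, adjusted p = 0.47), −0.09 ± 0.12 in CCF and −0.08 ± 0.12 in RCF lungs (adjusted p = 0.723 and 0.878). In VCF it was −0.27 within slide 1 and −0.34 within slide 2. A second Aqp5 probe stood at −0.18 ± 0.21 in VCF and 0.04 ± 0.21 in CCF and in RCF, and its groups overlapped. None of the 9 other measured aquaporin genes passed in any fibre group. Of these, 0, 2 and 1 had an unadjusted p under 0.05 in VCF, CCF and RCF. Among all genes 9.96%, 23.7% and 12.9% did. Aqp1, the water channel of lung capillaries, stood at 0.03, 0.06 and 0.09 in these groups.

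Igfbp2, a secreted binder of insulin-like growth factors that marks mature type 1 cells, had the lowest difference among the members in VCF. It read 2.74, 3.03 and 3.60 on the VCF arrays, 3.03, 3.41 and 3.99 on the CCF arrays and 3.39, 3.47 and 3.71 on the RCF arrays, against 3.46, 3.59, 3.59, 3.69 and 3.89 on the control arrays. The VCF arrays spread widely and VCF 3 lay within the controls. The difference was −0.52 ± 0.23 in VCF (adjusted p = 0.484), −0.17 ± 0.23 in CCF and −0.12 ± 0.23 in RCF lungs (adjusted p = 0.726 and 0.904). Without the dim array VCF 1, the lowest of all, it was −0.33 in VCF (adjusted p = 0.66). It was −0.64 within slide 1 and 0.01 within slide 2 for VCF. Of 8 other measured genes of the insulin-like growth factor group, none passed in a single fibre group. In VCF, CCF and RCF 0.0850%, 5.99% and 0.154% of all genes did. Igfbp3, the main carrier of these factors in plasma, read 3.27, 2.84 and 2.92 on the VCF arrays, 3.14, 3.28 and 3.42 on the CCF arrays and 3.23, 3.36 and 3.45 on the RCF arrays, against 3.82, 3.42, 4.03, 4.03 and 3.98 on the control arrays. The VCF arrays and the CCF arrays lay wholly below the controls (3.91% and 6.46% of all genes did), and 1 RCF array overlapped with control 2. Igfbp3 fell by 0.64 ± 0.12 with the 3 fibres averaged (adjusted p = 0.0282, lost without any one of 9 arrays). It was the 1 gene of these 8 to pass there, where 2.58% of all genes did.

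Clic5, a chloride intracellular channel protein linked to the actin cortex, was the other gene above 0 in CCF lungs at an unadjusted p under 0.05. It read 4.77, 4.45 and 4.71 on the VCF arrays, 4.97, 4.99 and 4.84 on the CCF arrays and 4.75, 4.81 and 4.70 on the RCF arrays, against 4.65, 4.43, 4.85, 4.59 and 4.62 on the control arrays. The lowest CCF array lay just below control 3 and above the other controls. The difference was 0.30 ± 0.12 in CCF (adjusted p = 0.16), 0.12 ± 0.12 in RCF and 0.01 ± 0.12 in VCF lungs (adjusted p = 0.748 and 0.994). Among the 4 other measured CLIC genes none passed, where 0.0850%, 5.99% and 0.154% of all genes did in VCF, CCF and RCF. Clic3 stood lowest, at −0.50 ± 0.15 in CCF (adjusted p = 0.0629), −0.36 in RCF and −0.31 in VCF. Of the 4, 1, 2 and 1 lay wholly below the controls in VCF, CCF and RCF, and none wholly above. Among all genes 3.91%, 6.46% and 3.77% lay wholly below.

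Emp2 encodes a tetraspan membrane protein that is enriched in type 1 cells. It read 5.97, 5.71 and 5.74 on the VCF arrays, 6.10, 6.34 and 5.72 on the CCF arrays and 6.26, 6.05 and 6.24 on the RCF arrays, against 6.07, 5.97, 5.96, 6.05 and 6.18 on the control arrays. Each fibre group overlapped with the controls, and VCF held 2 of the 3 lowest values. Differences were −0.24 ± 0.14 in VCF, 0.01 ± 0.14 in CCF and 0.14 ± 0.14 in RCF lungs (adjusted p = 0.655, 0.979 and 0.769). Its relative Emp1, an epithelial membrane protein of the same family, read 4.09, 4.45 and 4.41 on the CCF arrays and 3.36, 3.60, 3.72, 3.55 and 3.93 on the control arrays, without overlap. Among all genes, 9.89% had CCF arrays wholly above the controls. Emp1 rose by 0.69 ± 0.15 in CCF lungs (adjusted p = 0.0252, lost without any one of control 1, control 4, CCF 2 and CCF 3, and 0.113 without the 3 dim arrays) and stood at 0.49 ± 0.15 in RCF (adjusted p = 0.19) and 0.05 ± 0.15 in VCF. Emp3 stood at −0.05 ± 0.25 in CCF.

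Pdpn encodes podoplanin, a mucin-like glycoprotein of the apical type 1 cell surface and of lymphatic endothelium. It read 4.42, 4.26 and 4.38 on the VCF arrays, 4.56, 4.50 and 4.21 on the CCF arrays and 4.55, 4.22 and 4.34 on the RCF arrays, against 4.30, 4.96, 4.54, 4.24 and 4.25 on the control arrays. All groups overlapped, and control 2 was the highest array. The differences were −0.10 ± 0.18 in VCF, −0.04 ± 0.18 in CCF and −0.09 ± 0.18 in RCF (adjusted p = 0.931, 0.932 and 0.909). Without control 2 they were 0.02, 0.09 and 0.04 in VCF, CCF and RCF, so none of the directions held without that array.

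Between fibres, 0 of 9 genes passed in any comparison. For CCF against VCF 0.222% of all genes passed, for RCF against VCF 0.00981% and for RCF against CCF 0.00327%. At an unadjusted p under 0.05 stood 1, 1 and 0 of the 9 genes in these comparisons, where 13.8%, 9.05% and 9.26% of all genes did. The median difference of the 9 genes was 0.20 for CCF minus VCF and 0.19 for RCF minus VCF, with 7 of 9 above 0 in each, beside 0.01 and 0.06 over all genes, and 0.05 for RCF minus CCF. These comparisons share the VCF or the CCF arrays. The first was Hopx, given above, and the second Emp2 in RCF minus VCF (0.37 ± 0.16, adjusted p = 0.522). Clic5 was also higher on all CCF arrays than on all VCF and all RCF arrays, at 0.29 ± 0.14 for CCF minus VCF (adjusted p = 0.376) and −0.18 ± 0.14 for RCF minus CCF (adjusted p = 0.734). Groups did not overlap for 1 gene on the higher side (Clic5; 10.7% of all genes) and 1 on the lower (Hopx; 8.34%) in CCF against VCF, for 1 higher (Emp2; 10.5%) in RCF against VCF, with none lower, and for 1 higher (Hopx; 8.82%) and 1 lower (Clic5; 7.13%) in RCF against CCF.

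Few pairs of members moved together from array to array within the groups. After the mean of each group was removed, 36 pairs were correlated over 14 arrays, with a permutation p from 100000 resamples adjusted over the pairs. The resamples shuffled all 14 arrays and took no account of the group means already removed, so these p-values run too small. Ager and Akap5 moved together most closely, with Pearson r = 0.91 (permutation p = 4e-05, adjusted 0.00144) and Spearman rho = 0.86 (permutation p = 0.00013, adjusted 0.00468). The Pearson value was 0.94 without the 2 arrays farthest from the Ager median, 0.94 without the dim arrays and 0.86 with slide also removed. Akap5 and Emp2 followed at r = 0.77 (permutation p = 0.00115, adjusted 0.0207) and rho = 0.78 (permutation p = 0.00166, adjusted 0.0241), with r = 0.69, 0.52 and 0.60 under the same changes. By these p-values no other pair passed on Pearson's r, and 5 passed on Spearman's rho alone. As the p-values run too small, those 5 passes and that of Akap5 with Emp2 are not firm. No share over pairs of other genes is given here, so the counts of pairs are not a trait of these genes. Igfbp2 was at or below −0.14 with each of the other 8 genes, lowest with Aqp5 at r = −0.54 (permutation p = 0.0442, adjusted 0.152). That pattern did not hold throughout: with slide removed Igfbp2 stood at 0.18 with Akap5 and −0.02 with Pdpn, and without the dim arrays at 0.13 with Hopx. The levels of all genes on an array share its scaling and its RNA.

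**Figure D4:**
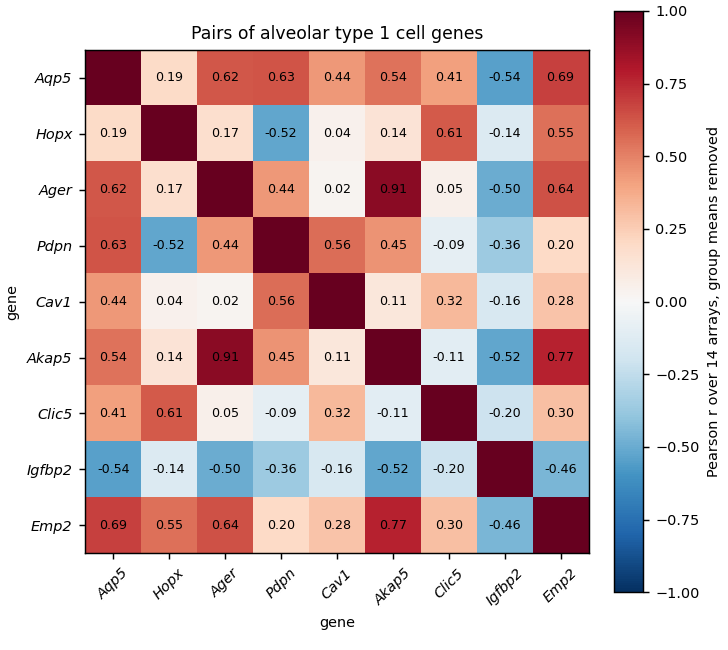
Pearson r between the 9 genes over 14 arrays after the mean of each group was removed (colour and printed value, from −1 to 1), with genes in the same order on both axes. Ager with Akap5 stands highest at 0.91, Akap5 with Emp2 follows at 0.77, and the Igfbp2 row is below 0 throughout.

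A second list of 20 type 1 cell genes was read beside the first. It was chosen with earlier results of these data known, so its counts are a description and no test. In CCF lungs 3 of these 20 rose and none fell, where 5.99% of all genes passed. In VCF and RCF lungs none passed, where 0.0850% and 0.154% of all genes did, and the medians were 0.08, −0.05 and 0.17 in CCF, VCF and RCF beside −0.00, −0.00 and 0.06 over all genes. Lama3, the laminin chain of the epithelial basement membrane, read 0.54, 0.38 and 0.07 on the CCF arrays, against −0.67, −0.43, −0.38, −0.58 and −0.93 on the control arrays. It rose by 0.93 ± 0.17 (1.90-fold, adjusted p = 0.0141), while a dimmer Lama3 probe, well above background on 6 arrays, stood at −0.76 ± 0.44. Sema3e, a secreted guidance cue for vessels and axons, read 1.06, 1.40 and 1.20 on the CCF arrays, against 0.61, 0.51, 0.66, 0.16 and 0.41 on the control arrays. It rose by 0.75 ± 0.15 (adjusted p = 0.0183). Cyp2b10, a drug-metabolising cytochrome P450, read 6.06, 6.28 and 6.02 on the CCF arrays, against 5.59, 5.38, 5.74, 5.51 and 5.36 on the control arrays. It rose by 0.60 ± 0.13 (adjusted p = 0.0253), with a second probe at 0.75 ± 0.20. The CCF arrays of these 3 genes lay wholly above the controls, as did those of 9.89% of all genes. Without the 3 dim arrays, which leaves 2 CCF arrays, the adjusted p was 0.0649 for Lama3, 0.0952 for Sema3e and 0.0978 for Cyp2b10.

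In the other fibre groups none of these genes passed. Lama3 stood at 0.75 ± 0.17 in RCF lungs (adjusted p = 0.0993) and 0.00 ± 0.17 in VCF lungs, and Sema3e at 0.64 ± 0.15 (adjusted p = 0.104) and 0.02 ± 0.15. Cyp2b10 stood at 0.50 ± 0.13 in RCF (adjusted p = 0.144) and 0.55 ± 0.13 in VCF lungs (adjusted p = 0.156). With the fibres averaged all of them rose, by 0.56, 0.47 and 0.55 for Lama3, Sema3e and Cyp2b10 (adjusted p = 0.0449, 0.0491 and 0.024). Of all genes, 2.58% passed in that comparison. The average holds the CCF arrays on which these genes were picked, so it is no separate evidence. The averaged call of Sema3e was lost without any single array, that of Lama3 without any one of 10 arrays and that of Cyp2b10 without control 1, 4 or 5. Among single fibre calls in CCF, Lama3 was lost without CCF 1 or CCF 2, Sema3e without CCF 2 or CCF 3, and Cyp2b10 without any one of control 4, control 5 and the CCF arrays.

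Of 12 regulators of alveolar differentiation, 1 passed in CCF lungs, where 5.99% of all genes did. None passed in VCF or RCF lungs, where 0.0850% and 0.154% of all genes did. Gata6, a zinc finger transcription factor of lung epithelium and smooth muscle, read 1.39, 1.64 and 1.53 on the CCF arrays, against 0.73, 1.19, 0.71, 1.02 and 0.74 on the control arrays, without overlap. Among all genes, 9.89% had CCF arrays wholly above the controls. Gata6 rose by 0.64 ± 0.14 in CCF lungs (adjusted p = 0.0251, lost without any one of control 1, 4 and 5 and CCF 1, 2 and 3). It stood at 0.18 ± 0.14 in VCF and 0.35 ± 0.14 in RCF lungs (adjusted p = 0.761 and 0.304). Of 8 YAP and TAZ target genes, 1 passed in CCF lungs, against the same 5.99% of all genes, and none in VCF or RCF lungs. Lats2, a kinase that restrains YAP, rose by 0.77 ± 0.16 in CCF lungs (adjusted p = 0.0201, lost without control 4, CCF 2 or CCF 3). Its 2 other probes stood at 0.70 ± 0.23 (well above background on 12 arrays) and −0.23 ± 0.23. The median of the 8 targets was 0.12 in VCF, 0.31 in CCF and 0.14 in RCF lungs. Without the 3 dim arrays neither gene passed in CCF (adjusted p = 0.105 for Gata6 and 0.0877 for Lats2).

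Markers of the neighbouring epithelial states did not pass either. Of 12 type 2 cell markers, 0 passed limma's threshold in VCF, CCF or RCF lungs (0.0850%, 5.99% and 0.154% of all genes did). At an unadjusted p under 0.05 stood 2, 3 and 0 of the 12, where 9.96%, 23.7% and 12.9% of all genes did. Their median difference was −0.07 in VCF, −0.22 in CCF and −0.09 in RCF. Etv5, a transcription factor that maintains type 2 cells, stood at −0.51 ± 0.12 in VCF (adjusted p = 0.142), −0.34 ± 0.12 in CCF (adjusted p = 0.104) and 0.00 ± 0.12 in RCF lungs. Of 12 genes of the transitional state, 0 passed in any fibre group, with 1, 2 and 0 at an unadjusted p under 0.05, and the median was 0.08 in VCF, −0.22 in CCF and −0.16 in RCF. On single arrays the transitional list stood at −0.37, −0.23 and −0.22 in CCF and between −0.21 and −0.18 in RCF. Control lungs, measured from their own mean, ran from −0.17 to 0.07. Both groups thus lay just below the controls, with RCF closest (−0.179 against −0.168). The T and B cell list also lay wholly below the controls, in all fibre groups. Krt19, a keratin of simple epithelia, read 3.48, 3.33 and 3.58 on the CCF arrays, all below the controls at 3.71, 3.74, 3.84, 3.93 and 3.65 (difference −0.31 ± 0.11, adjusted p = 0.107). Cdkn1a, the p53 target that halts the cell cycle, read 1.79, 1.91 and 1.61 on the VCF arrays, all above the controls at 0.33, 1.43, 0.86, 0.26 and 1.30 (difference 0.93 ± 0.27, adjusted p = 0.236). Among all genes, 6.46% lay wholly below the controls in CCF and 3.46% wholly above them in VCF. Of 6 airway epithelial, 6 fibroblast and 5 mesothelial markers none passed in any fibre group, and their unadjusted counts were at most 1.

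**Figure D5:**
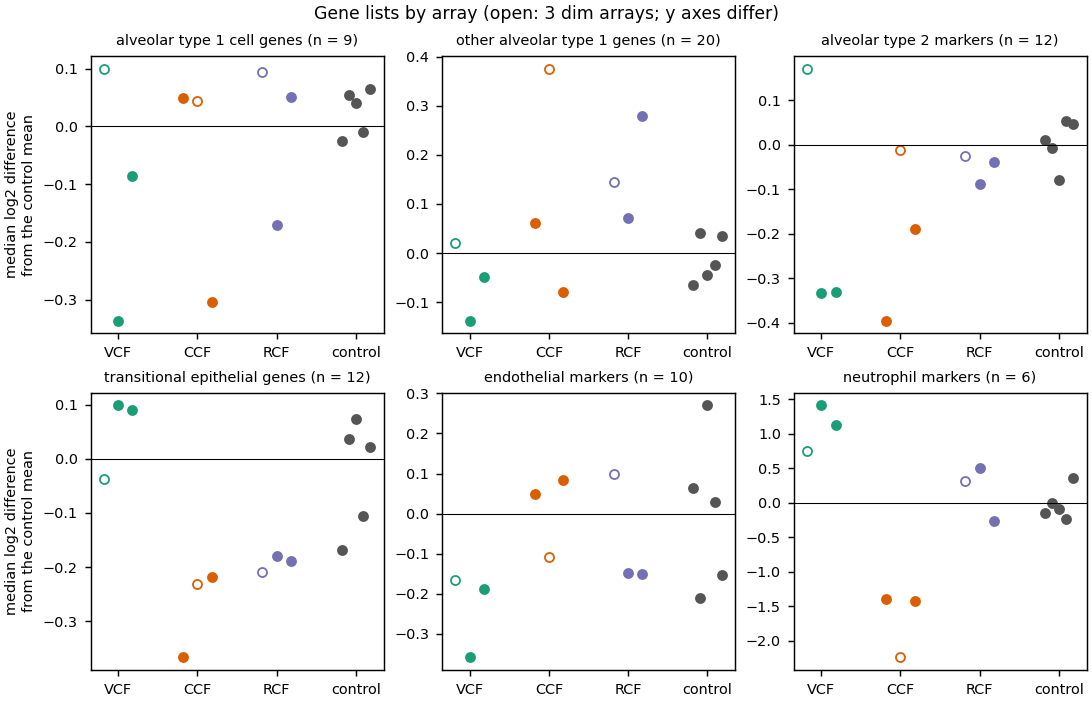
Median over each gene list of the difference from the control mean on each array (y axis, log2, scales differ between panels), by group from VCF to control, with open circles for the 3 dim arrays. The 9 alveolar type 1 cell genes lie from −0.34 to 0.10 on the fibre arrays and from −0.03 to 0.07 on the controls, while the neutrophil list lies above the controls in VCF and below them in CCF.

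On single arrays the median of the 9 genes, as a difference from the control mean, was 0.10, −0.34 and −0.09 on the VCF arrays, 0.05, 0.04 and −0.30 on the CCF arrays and 0.09, −0.17 and 0.05 on the RCF arrays, against −0.03, 0.05, 0.04, −0.01 and 0.07 on the control arrays. The dim arrays VCF 1 and RCF 1 were the highest of their groups, and VCF 2 and CCF 3 the lowest of all. Among 15738 other named genes, the mean of the 9 over the 14 arrays was most like Cd300ld4 (r = 0.84), Tmed9 (r = 0.84) and F11r (r = 0.84), followed by the haemoglobin gene Hba-a2 (r = 0.82). With group means removed it was most like Prl2c1 (r = 0.94), Fhl1 (r = 0.91) and Wnt3a (r = 0.88). For single members the closest genes were Gsn for Ager (r = 0.98), Trim34b for Cav1 (r = 0.94), Rassf3 for Akap5 (r = 0.94), Tpbg for Pdpn (r = 0.93) and Spock2 for Aqp5 (r = 0.86). These were picked from all genes as the highest values and carry no test. The median of the 4 erythroid markers lay from −2.34 to −1.04 on the VCF arrays, 0.29 to 1.20 on the CCF arrays and −0.61 to 0.16 on the RCF arrays, against −1.24 to 0.94 on the control arrays, and the part of blood in the values of the 9 genes was not tested.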

How the data were processed

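Lung RNA from 14 mice was measured on single-colour Agilent arrays. The deposited intensity is the processed signal of Feature Extraction 10.7.3.1, per the file headers, corrected for background but not scaled between arrays. The authors' deposited series table (32177 probes) holds log2 of that signal minus 1 constant per array, of unstated origin, with column medians from −0.52 to 0.30. It served as an alternative.

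Here the 75th percentile of each array was subtracted from log2 intensity, after outlier spots were dropped and spots of a probe averaged. Probes (37984) were kept if well above background on 3 or more arrays. RefSeq accessions (GRCm38.p6) gave 1 symbol to 32994 of 56605 probes. Each gene took its probe of highest mean, which left 30579 genes (30574 in comparisons with RCF). Limma 3.58.1 (R 4.3.3) was fitted to all arrays with 4 groups and no covariate, with Benjamini-Hochberg adjustment within each of 7 comparisons, and the code was tested on simulated data. Members and gene lists were chosen with earlier results of these data known. All members are named, related family members may be, and of other lists up to 4 genes past the threshold or else up to 2 as values. Alternatives covered scaling, background, filter, probe choice, slide, array weights and single arrays.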

Additional observations from a re-analysis of the deposited data

Results flagged for a closer look

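Hopx on control 2 read 5.80, while the other controls lay between 6.24 and 6.38, and the gap to the nearest of them was 0.752 of the range of the group. It was 1 of 16 probes whose control arrays were checked in this way, and about 1 in 20 such checks marks an array by chance.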

How the results depend on the processing

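The count of members past the threshold stayed at 0 of 9 in VCF and RCF lungs and between fibres under every alternative run. In CCF lungs it was 1 (Cav1) with the authors' deposited table, with probes above background on all arrays and with the mean of the probes of a gene, 2 (Hopx and Cav1) with array weights, and 0 to 1 when single arrays were left out (Hopx without control 2, Cav1 without control 3). With the fibres averaged it was 2 (Hopx and Cav1) with array weights. In all 9 of 1692 alternative member differences passed. The median of the 9 genes in VCF was −0.30 with array weights, −0.32 without the 3 dim arrays and −0.32 to −0.055 without single arrays, which gave −0.13 to 0.015 in CCF and −0.097 to 0.038 in RCF. Quantile scaling gave a median of 0.11 in CCF and 0.0097 for the averaged fibres, and within slide 2 the median of CCF minus VCF was −0.051. Counts over all genes moved more: leaving out single arrays gave 0 to 28 in VCF (26 with all arrays), 258 to 2717 in CCF (1832) and 0 to 55 in RCF (47), and all alternatives 0 to 716, 2 to 4894 and 0 to 3200. The highest counts came with array weights and the lowest in CCF, 2, with the replicate block. In CCF 405 passed with normexp, 372 with no filter, 418 without the 3 dim arrays and 271 with only the groups compared. The cause of these shifts was not tested, and 3 arrays per fibre limit what can be passed.

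Replicate numbers were not taken as pairing the arrays, since only 12 of 18 pairs with the same number in different groups correlated above 0.1, the lowest at −0.283. Same-number pairs had a median r of 0.181, and pairs with different numbers one of −0.111 with 8 of 36 above 0.1. Of 12 arrays, 6 correlated best with their own number. Arrays of the same number mostly shared a slide: all those numbered 1 stood on slide 1. A pairing that the labels do not state and a likeness within slides therefore cannot be told apart here. With the replicate block the median of the 9 genes was −0.191 in VCF, −0.098 in CCF and −0.022 in RCF, with 0 of 9 past the threshold in each. With it 0, 2 and 0 of all genes passed in VCF, CCF and RCF, and among the genes named Hmgb1 (adjusted p = 0.118) and Lyve1 (adjusted p = 0.0501) did not pass in CCF.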
